A study of Mus musculus with 31 samples.

Results

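The Tsc22 domain family consists of 4 mouse genes, *Tsc22d1*, *Tsc22d2*, *Tsc22d3* and *Tsc22d4*, and its members were taken as the genes with these 4 symbols among the 39179 genes of the deposited count table. The proteins share a conserved TSC box followed by a leucine zipper, through which they form dimers with each other and bind other proteins. *Tsc22d3* encodes GILZ, the glucocorticoid-induced leucine zipper, which binds subunits of NF-κB and AP-1, the kinase Raf and Ras, and which is known in immune cells for damping inflammatory gene expression after glucocorticoid (GC) treatment. *Tsc22d1* was first found as a gene induced by TGF-β, and *Tsc22d2* and *Tsc22d4* encode partners of the pseudokinase NRBP1 and of the WNK kinases that control cell volume.

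The study grew an *Nras*-mutant mouse melanoma line and treated it with the GC clobetasol propionate, in mice and in culture, with or without the glucocorticoid receptor (GR, gene *Nr3c1*). The parental line came from a C57BL/6 background carrying Nras+LSL-G12D;Tyr::CreERT2+/o, in which Cre is driven by the *Tyr* promoter of melanocytes, and the GR knockout line (GRKO) is 1 clone made from it with CRISPR-Cas9. Messenger RNA was sequenced from its 3′ ends, so that each count stands for a transcript end. In mice, each of 4 groups had 5 tumors, namely parental tumors with control treatment, parental tumors with GC as a 0.05% ointment, GRKO tumors with control treatment and GRKO tumors with the ointment. The tumors were implanted intradermally in wild-type C57BL/6 mice, whose age the labels do not give and whose own cells keep GR in every tumor. In culture, parental cells received DMSO (3 cultures) or GC (2 cultures), and GRKO cells received DMSO (3 cultures) or GC (3 cultures). The GC dose in culture is 10 µM by the treatment label and by the study's methods, which allow for stated exceptions, and 1 µM by the library names.

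The count totals were 15528066 to 26386770 reads per tumor and 14441166 to 22463188 reads per culture. Levels below are in CPM, counts as a fraction of the library total in the usual per-million unit, after TMM scaling of all 31 libraries together, and changes are log2 fold changes from edgeR fits of the 20 tumors or the 11 cultures. A gene passed the test with a Benjamini-Hochberg adjusted p under 0.05 over all genes tested and a linear fold of at least 1.5. Some tumor libraries stood apart from the rest. *Gm26924*, an annotated noncoding gene, took more than 5% of the counts in 6 tumors, which were GRKO control replicates 1, 2, 3 and 5, GRKO GC replicate 4 and parental control replicate 1. Its mean share was 8.73% in GRKO control tumors (0.248% to 16.3%) and 2.14%, 1.60% and 2.56% in parental control, parental GC and GRKO GC tumors. Genes with a count numbered 13442 to 16980 in GRKO control tumors, which held the 4 lowest of the 20 values, and 15578 to 16801, 15918 to 16983 and 15224 to 16799 in the other groups in the same order. The mitochondrial share was 0.587% to 1.15% in GRKO control tumors, replicate 4 included, and above that range in every other tumor, from 1.25% to 2.47%. The part of these library differences in the GRKO tumor results, for GC and for genotype, was not tested. Comparisons of members are also given without the 6 tumors high in *Gm26924* where a call or direction changed.

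*Nr3c1* itself kept reads in the GRKO line. Its level was 33.6 ± 2.87 CPM (SD, n = 3) in parental and 21.3 ± 4.59 CPM (SD, n = 3) in GRKO cells with DMSO, and 54.1 ± 7.21 and 27.0 ± 5.45 CPM (SD, n = 5 each) in parental and GRKO control tumors. Reads from the transcript end can lie outside the edited stretch, so these levels do not measure the loss of the receptor. Melanocyte markers were sparse in culture. *Mitf*, the melanocyte transcription factor, had group means of 4.07 to 10.9 CPM in cultures and 26.0 to 41.8 CPM in tumors, while *Sox10*, *Dct*, *Tyr* and *Mlana* had no count in any culture and *Tyr* had none in any tumor. *Ptprc*, the leukocyte surface gene, had group means of 39.8 to 45.9 CPM in tumors and at most 0.297 CPM in cultures, so tumor values of the family also hold RNA of host cells.

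All 4 members were counted in all 31 libraries, from 61 reads of *Tsc22d2* in GRKO control tumor replicate 1 to 8902 reads of *Tsc22d3* in parental GC tumor replicate 1, and all 4 passed the filter on low counts. On the GRCm38 assembly they lie on 4 chromosomes. *Tsc22d1* (ENSMUSG00000022010) is on the plus strand of chromosome 14 from 76414961 to 76507765 and has 16 annotated transcripts. *Tsc22d2* (ENSMUSG00000027806) occupies positions 58414715 to 58466783 of chromosome 3, plus strand, with 4 transcripts. *Tsc22d3* (ENSMUSG00000031431) reads from the minus strand of chromosome X between 140539528 and 140600659 and has 6 transcripts. *Tsc22d4* (ENSMUSG00000029723) spans 137745730 to 137768450 of chromosome 5, plus strand, with 9 transcripts. None of the 4 overlaps another annotated gene, and each has several annotated transcript ends, so that counts per gene do not tell the isoforms apart.

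*Tsc22d3* varied most over the 8 groups. Its highest group mean was 26.2 times its lowest, against 3.14 for *Tsc22d4*, 1.98 for *Tsc22d1* and 1.42 for *Tsc22d2*. In order, the mean level of *Tsc22d3* was 361 ± 118 CPM in parental GC tumors and 220 ± 34.5 CPM in GRKO GC tumors (SD, n = 5 each), then 118 ± 2.25 CPM in parental GC cells (SD, n = 2). Control tumors followed with 71.0 ± 18.6 CPM when parental and 66.2 ± 18.3 CPM when GRKO (SD, n = 5 each). The lowest were GRKO DMSO cells with 18.4 ± 1.66 CPM, GRKO GC cells with 17.4 ± 3.36 CPM and parental DMSO cells with 13.8 ± 2.61 CPM (SD, n = 3 each). Parental and GRKO control tumors differed by less than their SD, as did GRKO cells with and without GC, and the ranges of parental and GRKO GC tumors overlapped.

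The other members followed different orders. *Tsc22d1*, the TGF-β-induced member, was highest in parental DMSO cells at 206 ± 13.4 CPM (SD, n = 3), then at 166 ± 9.40 CPM in parental GC cells (SD, n = 2) and 164 ± 22.0 CPM in parental GC tumors (SD, n = 5). Its lowest group mean was 104 ± 27.7 CPM in GRKO control tumors, within the SD of parental control tumors at 117 ± 29.0 CPM (SD, n = 5 each). *Tsc22d4* had its highest mean in parental DMSO cells, at 43.1 ± 9.61 CPM (SD, n = 3). Parental GC cells at 40.5 ± 2.03 CPM (SD, n = 2) and GRKO GC cells at 40.0 ± 13.1 CPM (SD, n = 3) lay within the SD of those DMSO cells. Its lowest mean was in GRKO control tumors, at 13.7 ± 7.83 CPM, which was within the SD of parental control tumors at 20.6 ± 9.37 CPM (SD, n = 5 each). *Tsc22d2* stayed between group means of 12.5 ± 6.02 CPM in GRKO control tumors and 17.9 ± 3.32 CPM in parental control tumors (SD, n = 5 each), and no neighbors in its order differed beyond their SD.

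**Figure D1:**
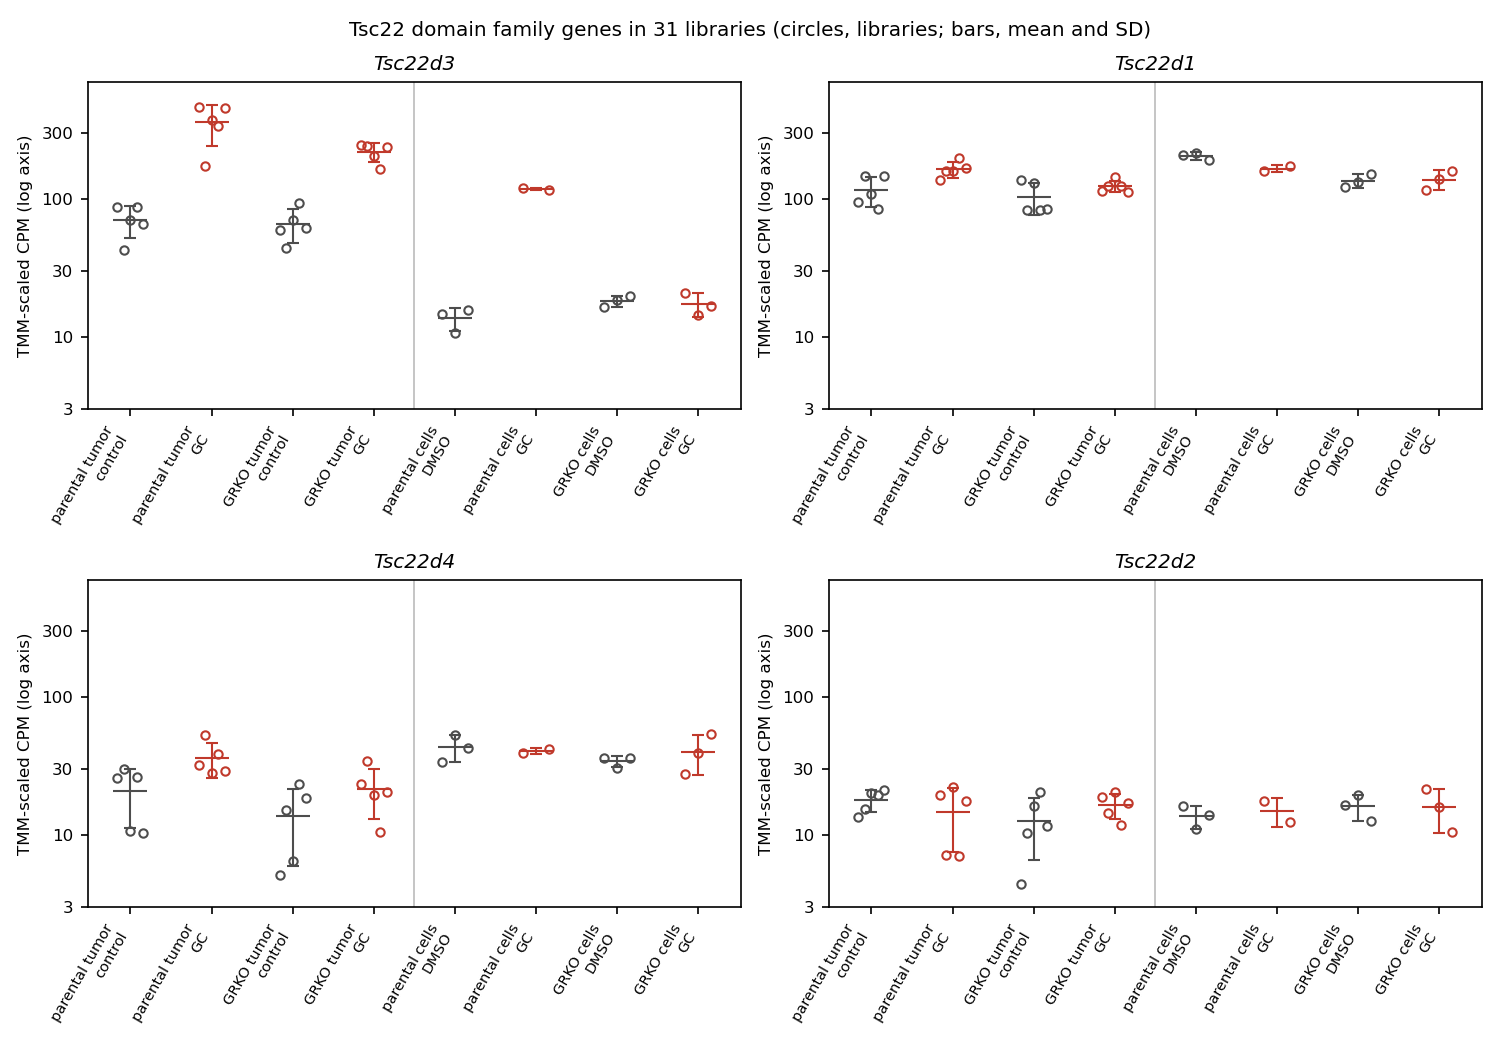
Level of each member in every library, as TMM-scaled CPM on a log axis, in the 8 groups of tumors and cultures; circles are libraries, bars are the group mean and SD, dark is control or DMSO and red is GC. *Tsc22d3* lay between 166 and 461 CPM in the 10 GC tumors, above all 10 control tumors, and between 14.4 and 21.1 CPM in the 6 GRKO cultures.

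The comparison of GC with control treatment in parental tumors asked how the family responds in a tumor whose tumor and host cells both have GR. *Tsc22d3* had 87.6, 42.5, 70.8, 87.7 and 66.5 CPM in parental control tumor replicates 1 to 5 and 461, 174, 374, 338 and 458 CPM in parental GC tumor replicates 1 to 5. All 5 GC tumors lay above all 5 control tumors, and replicate 2 was the lowest tumor of each group. *Tsc22d3* rose 5.05-fold (95% interval 3.53 to 7.23), a log2 fold change of 2.34 with a standard error (SE) of 0.25 and adjusted p = 1.61e-05. It was the 1 member of 4 that passed, where 0.779% of the 15919 genes tested did (124 genes, and 60 to 178 when 1 tumor is left out). *Tsc22d1* had a log2 fold change of 0.49 (SE 0.20, adjusted p = 0.260), with 4 of 5 GC tumors above all controls. *Tsc22d4* had 0.82 (SE 0.38, adjusted p = 0.326), with 3 of 5 GC tumors above all controls, and *Tsc22d2* had -0.30 (SE 0.34, adjusted p = 0.747). Exact two-sided permutation tests on log2(CPM + 1) gave p = 0.00794 for *Tsc22d3*, the smallest that 5 against 5 allow, and p = 0.0238 for both *Tsc22d1* and *Tsc22d4*. With adjustment over the 16 exact tests of members these became 0.0635 and 0.0952. Even with full separation in both tumor comparisons, *Tsc22d3* cannot fall under 0.05 after this adjustment unless tests of other members also give small p, which the 8 tests of cultures cannot, so the adjusted values do not tell whether *Tsc22d3* changed.

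GRKO tumors lack GR in the implanted cells and keep it in the host. *Tsc22d3* had 59.9, 44.4, 70.9, 94.1 and 61.8 CPM in GRKO control tumor replicates 1 to 5 and 247, 244, 205, 166 and 237 CPM in GRKO GC tumor replicates 1 to 5. Again all 5 GC tumors lay above all 5 controls, and the lowest GC tumor, replicate 4, still exceeded the highest control tumor, also a replicate 4. *Tsc22d3* rose 3.41-fold (95% interval 2.40 to 4.85; log2 fold change 1.77, SE 0.25, adjusted p = 0.000403), and the exact permutation test gave p = 0.00794 and 0.0635 after adjustment over the 16 tests, with the same limit. It was again 1 of 4 members to pass, beside 6.42% of all genes tested, which is 1022 genes, 303 to 2411 when 1 tumor is left out and 29 without the 6 tumors high in *Gm26924*. *Tsc22d4* had a log2 fold change of 0.69 (SE 0.38, adjusted p = 0.270), *Tsc22d2* 0.43 (SE 0.34, adjusted p = 0.464) and *Tsc22d1* 0.28 (SE 0.20, adjusted p = 0.396). Without the 6 tumors high in *Gm26924*, GRKO control replicate 4 is the only GRKO control tumor and is assumed to vary like the other groups. In that fit *Tsc22d3* had a log2 fold change of 1.41 and did not pass (adjusted p = 0.347), and *Tsc22d2* had -0.10. Over the alternatives the adjusted p of *Tsc22d3* ranged from 5.81e-09 to 0.347. With the share of *Gm26924* as a covariate, *Tsc22d3* passed with a log2 fold change of 1.65.

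The GC effect on *Tsc22d3* was larger in parental than in GRKO tumors by 0.57 on the log2 scale (SE 0.34, 95% interval -0.13 to 1.27, adjusted p = 0.347), which did not pass. It was 0.33 with library totals (adjusted p = 0.679) and 1.03 without the 6 tumors high in *Gm26924*, which leaves 1 GRKO control tumor. The difference passed under none of the alternatives, with adjusted p of 0.234 or more. None of the 4 members passed this edgeR test and none had an unadjusted p under 0.05. By edgeR 0.195% of all genes tested passed, which is 31 genes and 0 to 1284 when 1 tumor is left out. DESeq2 called none of the members and 784 of the 15919 genes. For *Tsc22d1* the difference was 0.21, and -0.23 without the 6 tumors high in *Gm26924*. The 4 groups behind these comparisons are shared, so the values above are set side by side and are not independent. Between genotypes, none of the 4 members passed in control tumors, where 2.25% of all genes did (358 genes, and 61 to 1762 when 1 tumor is left out) and no member had an unadjusted p under 0.05. *Tsc22d3* had a log2 difference of GRKO to parental control tumors of -0.12 (SE 0.24, adjusted p = 0.804), and 0.41 without the 6 tumors high in *Gm26924*. In the same way *Tsc22d2* went from -0.54 to 0.011 and *Tsc22d4* from -0.60 to 0.20. Without these tumors GRKO control replicate 4 stands alone against the parental controls kept, so no count of genes is given. In GC tumors, where 0.634% of all genes passed (101 genes, and 40 to 114 when 1 tumor is left out), the same difference was -0.69 for *Tsc22d3* (SE 0.24, adjusted p = 0.239), the 1 member with an unadjusted p under 0.05. *Tsc22d1*, *Tsc22d2* and *Tsc22d4* had -0.39, 0.19 and -0.73 there. DESeq2 called no member in either genotype comparison of tumors, and of all genes it called 1001 in control and 293 in GC tumors.

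In culture there are no host cells. *Tsc22d3* had 14.8, 10.8 and 15.7 CPM in parental DMSO cultures and 119.6 and 116 CPM in parental GC cultures. Each GC culture was far above every DMSO culture, and the GC cultures differed little from each other. The log2 fold change of *Tsc22d3* was 3.09 (SE 0.20, adjusted p = 2.28e-05), an 8.52-fold rise, and it was 1 of 4 members to pass where 0.878% of the 12525 genes tested did (110 genes, and 31 to 78 when 1 culture is left out). *Tsc22d1*, *Tsc22d2* and *Tsc22d4* had log2 fold changes of -0.32, 0.12 and -0.10 with adjusted p from 0.641 to 0.899. The exact permutation test of 2 cultures against 3 gave p = 0.1 for *Tsc22d3*, which is the smallest it allows, so it cannot reach 0.05.

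In GRKO cultures *Tsc22d3* had 16.6, 18.7 and 19.8 CPM with DMSO and 21.1, 14.4 and 16.8 CPM with GC. The values overlapped, with the highest and the lowest of the 6 cultures both among those with GC. The log2 fold change was -0.05 (SE 0.18, 95% interval -0.44 to 0.34, adjusted p = 0.984), and the exact permutation test gave p = 0.7. No member passed, and of the 12525 genes tested edgeR called 0%, with 237 genes at an unadjusted p under 0.05, while DESeq2 also called 0 genes. The GC effect on *Tsc22d3* differed between parental and GRKO cultures by 3.14 (SE 0.27, adjusted p = 0.000332), and this difference passed for 1 of the 4 members and for 0.295% of all genes (37 genes, and 17 to 43 when 1 culture is left out). For the other members the difference lay between -0.38 and 0.10.

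**Figure D2:**
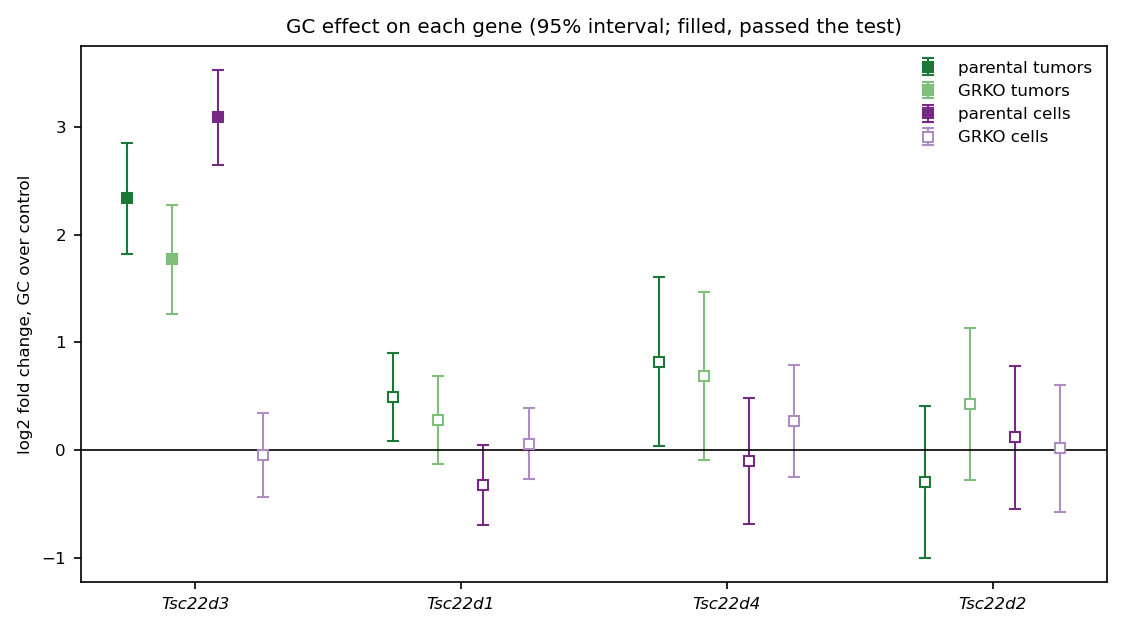
Log2 fold change of GC over control or DMSO for each member in parental tumors, GRKO tumors, parental cells and GRKO cells, with the 95% interval; filled symbols passed the test. *Tsc22d3* passed in 3 of 4 settings, at 2.34, 1.77 and 3.09, and lay at -0.05 in GRKO cells; in GRKO tumors it did not pass without the 6 tumors high in *Gm26924*.

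GRKO and parental cultures also differed without GC. The GRKO line is 1 clone, so loss of GR and other traits of that clone cannot be told apart here. *Tsc22d1* had 211, 217 and 191 CPM in parental DMSO cultures and 122, 134 and 153 CPM in GRKO DMSO cultures. All 3 GRKO cultures lay below all 3 parental ones. *Tsc22d1* fell with a log2 difference of -0.61 (SE 0.15, adjusted p = 0.0283), the 1 member of 4 that passed beside 8.22% of all genes (1030 genes, and 594 to 916 when 1 culture is left out). This value sits close to the fold threshold. With library totals in place of TMM factors the difference was -0.58 and under the fold minimum, in the joint fit of 31 libraries it was -0.60 with adjusted p = 0.174, and it did not pass without GRKO replicate 1 (-0.52, adjusted p = 0.115), GRKO replicate 2 (-0.59, adjusted p = 0.109), parental replicate 1 (-0.60, adjusted p = 0.0769) or parental replicate 2 (-0.56, adjusted p = 0.0705). The adjusted p ranged from 0.00438 to 0.174 over the alternatives. *Tsc22d3* had 0.41 in this comparison (SE 0.18, adjusted p = 0.194). With GC, *Tsc22d3* was lower in GRKO than in parental cultures by a log2 difference of -2.73 (SE 0.20, adjusted p = 9.84e-06), again 1 of 4 members beside 5.55% of all genes (695 genes, and 322 to 842 when 1 culture is left out), and the other members had differences of -0.22 to 0.13.

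Setting control tumors against DMSO cultures showed how the family differs between the tumor, host cells included, and the line grown alone. Growth in a mouse and the mixture of cells cannot be told apart in this comparison. In the parental line, 3 of 4 members passed beside 46.7% of the 16273 genes tested, whose median log2 difference was 0.37. *Tsc22d3* was higher in tumors by 2.37 (SE 0.29, adjusted p = 4.96e-08), with every control tumor above every DMSO culture. *Tsc22d1* was lower in tumors by a log2 difference of -0.82 (SE 0.19, adjusted p = 0.000758) and *Tsc22d4* by -1.07 (SE 0.39, adjusted p = 0.0245), so the family did not move one way. *Tsc22d4* did not pass without parental control tumor replicate 3 (-0.88, adjusted p = 0.0734), DMSO culture replicate 2 (-0.89, adjusted p = 0.108) or DMSO culture replicate 3 (-1.07, adjusted p = 0.0536).

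In the GRKO line, 2 of 4 members passed beside 54.8% of all genes, whose median was 0.33. *Tsc22d3* was higher in tumors by 1.85 (SE 0.28, adjusted p = 1.50e-06). *Tsc22d4* was lower by a log2 difference of -1.30 (SE 0.39, adjusted p = 0.00556). Without the 6 tumors high in *Gm26924*, which leaves 1 GRKO control tumor, it had -0.60 and did not pass. *Tsc22d1* had -0.39 (SE 0.19, adjusted p = 0.0869) and *Tsc22d2* -0.35 (SE 0.37, adjusted p = 0.423). Without the same 6 tumors *Tsc22d1* passed, with -0.77, and *Tsc22d2* had 0.28. With library totals in place of TMM factors the median of all genes moved to 0.49 in the parental and 0.15 in the GRKO comparison, and the signs for *Tsc22d1*, *Tsc22d3* and *Tsc22d4* held under each scaling tried.

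The GC effect itself was then compared between tumors and cultures. In the parental line the effect on *Tsc22d3* was lower in tumors by a log2 difference of -0.75 (SE 0.39, adjusted p = 0.527), and 0 of 4 members passed beside 0.203% of all genes (33 genes, and 14 to 36 when 1 library is left out). *Tsc22d1* was the 1 member with an unadjusted p under 0.05 in this edgeR test, with a difference of 0.81 (SE 0.30, adjusted p = 0.458). DESeq2 called no member, beside 89 of all genes. In the GRKO line the effect on *Tsc22d3* was larger in tumors by 1.80 (SE 0.37, 95% interval 1.05 to 2.56, adjusted p = 0.0554), which missed the threshold. No member passed by edgeR there beside 0.0492% of all genes (8 genes, and 0 to 216 when 1 library is left out), and 1 member had an unadjusted p under 0.05. DESeq2 called *Tsc22d3* with a difference of 1.72, among 185 of the 16273 genes tested. In edgeR *Tsc22d3* passed with the replicate number as a block (1.88, adjusted p = 0.0198) and with no filter (1.83, adjusted p = 0.0258). It also passed in edgeR without GRKO control tumor replicate 3 (1.83, adjusted p = 0.0485) or 4 (1.97, adjusted p = 0.0117), without GRKO GC tumor replicate 4 (1.89, adjusted p = 0.0317) and without GRKO GC culture replicate 1 (1.96, adjusted p = 0.0392), and the adjusted p ranged from 0.00231 to 0.501 over the alternatives. *Tsc22d2* and *Tsc22d4* had differences of 0.40 and 0.41 there, and -0.11 each without the 6 tumors high in *Gm26924*.

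Ratios within a library need no scaling factor, and they show how the balance between paralogs shifted. The counts are of transcript ends and were not divided by transcript length. *Tsc22d3* was the member with the most reads in all 10 GC tumors and in replicate 4 of each control tumor group, and *Tsc22d1* was that member in the other 8 control tumors and in all 11 cultures. As a share of the reads of the 4 members, *Tsc22d3* made up 39.4%, 18.2%, 33.6%, 40.2% and 27.1% in parental control tumor replicates 1 to 5 and 71.0%, 44.1%, 64.2%, 58.1% and 68.2% in parental GC tumor replicates 1 to 5. The lowest GC tumor, at 44.1% (95% Clopper-Pearson interval 43.0% to 45.2%), lay above the highest control tumor, at 40.2% (38.7% to 41.7%), where the intervals cover counting error only.

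In GRKO tumors the share of *Tsc22d3* was 33.4 ± 5.66% with control treatment and 57.3 ± 4.20% with GC (SD, n = 5 each), a gain of 23.9 percentage points, against 29.4 points in parental tumors, where the means were 31.7 ± 9.23% and 61.1 ± 10.7% (SD, n = 5 each). Parental cultures went from 5.01 ± 1.17% (SD, n = 3) to 34.8 ± 1.24% (SD, n = 2), a gain of 29.8 points that left *Tsc22d1* as the most abundant member. GRKO cultures had 8.96 ± 0.291% with DMSO and 8.40 ± 2.54% with GC (SD, n = 3 each). Without the 6 tumors high in *Gm26924*, the gain in GRKO tumors was 15.8 points. It was then measured from 1 control tumor, GRKO control replicate 4, at 42.6%.

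**Figure D3:**
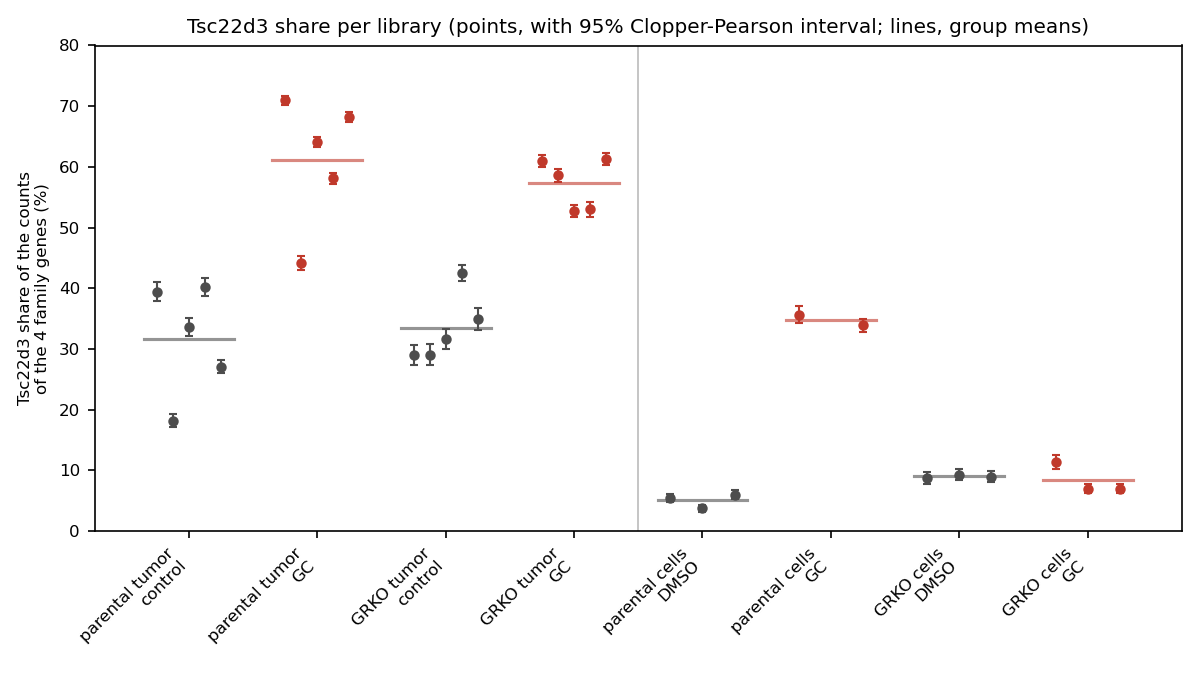
Reads of *Tsc22d3* as a percent of the reads of the 4 members in each library, with the 95% Clopper-Pearson interval of each library and a line at each group mean, in the 8 groups of tumors and cultures. The mean went from 31.7% to 61.1% in parental tumors, from 33.4% to 57.3% in GRKO tumors and from 5.01% to 34.8% in parental cells with GC, and was 8.96% and 8.40% in GRKO cells.

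Each paralog was also set against *Tsc22d3* by itself, in 12 exact permutation tests of the log2 ratio of counts. In parental tumors, GC raised the ratio of *Tsc22d3* to *Tsc22d1* by 1.79 and to *Tsc22d2* by 2.74 (exact p = 0.00794, adjusted over the 12 tests 0.0317 for each). The ratio to *Tsc22d4* differed by 1.40 (exact p = 0.0476, adjusted 0.114). In GRKO tumors the ratio to *Tsc22d1* rose by 1.47 (exact p = 0.00794, adjusted 0.0317), while the ratios to *Tsc22d2* and *Tsc22d4* differed by 1.23 (exact p = 0.0238, adjusted 0.0714) and 0.98 (exact p = 0.119, adjusted 0.159). *Tsc22d3* thus gained on *Tsc22d1* in tumors of both genotypes. Parental cultures had differences of 3.42, 2.99 and 3.18 against *Tsc22d1*, *Tsc22d2* and *Tsc22d4* (exact p = 0.1 for each, the smallest possible), and GRKO cultures had -0.11, -0.04 and -0.27. Without the 6 tumors high in *Gm26924*, the ratio to *Tsc22d1* in GRKO tumors differed by 0.74. That leaves 1 GRKO control tumor, so the exact test cannot fall under 0.05 there. Without the same tumors neither ratio that had passed in parental tumors did so, with differences of 1.94 to *Tsc22d1* and 2.93 to *Tsc22d2*. The same held for the ratio to *Tsc22d1* in parental tumors, between 1.53 and 2.03 with 1 tumor left out, when any control tumor or GC replicate 1 or 5 was missing, and in GRKO tumors, between 1.33 and 1.67, when any GC tumor was missing (adjusted p = 0.0635 in exact tests). The cause of these lost calls was not tested. The ratio to *Tsc22d2* in GRKO tumors passed without control replicate 1 (1.54).

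Over the 8 group means of log2(CPM + 1), *Tsc22d1* and *Tsc22d4* followed each other with Pearson r 0.874, and the other 5 pairs of members had r from -0.287 to 0.188. This is a description over 8 points. Among 7769 genes with at least 5 CPM in every group mean, the pattern of *Tsc22d3* was nearest to *Per1* (r 0.980), a clock gene with GR elements, then *P4ha3* (0.979), *Svil* (0.974), *Ttpal* (0.956) and *Tmem37* (0.950). For *Tsc22d1* the nearest were *Stk3* (0.978), *Kdm4b* (0.974), *Zrsr1* (0.972), *Ecd* (0.972) and *Pknox1* (0.954). *Tsc22d4* lay nearest to *Golgb1* (0.985), *Cryzl1* (0.984), *Peg10* (0.983), *Mir5136* (0.982) and *Kif21a* (0.981), and *Tsc22d2* to *Tbc1d15* (0.960), *Rnf11* (0.954), *Dnaja2* (0.953), *1600012H06Rik* (0.942) and *Pcdhga9* (0.936). Apart from *Per1*, the GC tests were passed by *Tmem37* in parental cells (log2 fold change 1.13), *Peg10* in parental and GRKO tumors (1.30 and 1.18) and *Pcdhga9* in GRKO tumors (1.48, adjusted p = 0.0482).

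GC-induced genes other than *Tsc22d3* place its response. Of 20 listed, 18 were tested in tumors, and 9 rose and 0 fell in parental tumors, where 0.779% of all genes passed. The median log2 fold change of the list was 1.39 beside 0.00 for all genes. Such counts describe the listed genes and are not a test of the list. *Hif3a* (4.38), *Per1* (2.19), *Rgs2* (1.88), *Mt1* (1.81), *Ddit4* (1.77) and *Mt2* (1.73) were the largest, so the 2.34 of *Tsc22d3* lay between *Hif3a* and *Per1*. *Hif3a* passed in 7 of the 10 fits that leave out 1 tumor. In GRKO tumors 7 rose and 1 fell, where 6.42% of all genes passed, a share that moved with the tumors left out as given above. The median of the list there was 0.67 beside 0.05 for all genes. *Fkbp5*, the GR co-chaperone, had 2.03, *Anxa1* 1.72, *Per1* 1.29, *Klf9* 1.25 and *Ddit4* 1.19, and *Tsc22d3* at 1.77 lay between *Fkbp5* and *Anxa1*. *Hif3a* had no count in any of the 5 GRKO control tumors and a mean of 0.573 CPM in GRKO GC tumors, so no fold is given. *Cdkn1a* was the gene that fell (-0.88), and it is named for that direction, outside the choice by size. *Anxa1* passed in 3 of the 10 fits that leave out 1 GRKO tumor and *Mt2* in 4 of 10, and without the 6 tumors high in *Gm26924* 0 of the 18 passed in GRKO tumors. That fit has 1 GRKO control tumor. In it the log2 fold changes of *Klf9* (2.41) and *Ddit4* (1.37) were larger than with every tumor, and those of *Fkbp5* (1.66), *Per1* (0.89), *Anxa1* (0.64), *Mt2* (0.39) and *Cdkn1a* (-0.67) were smaller in size.

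In parental cultures 8 of the 15 GC-induced genes tested rose and 0 fell (median 1.46 beside 0.00), where 0.878% of all genes passed. *Mt2* (3.76) and *Rgs2* (3.17) exceeded the 3.09 of *Tsc22d3*, and *Per1* (2.77), *Fkbp5* (2.33), *Mt1* (2.23) and *Klf9* (1.91) were below it. In GRKO cultures edgeR called 0 of 15, with a median of -0.02, and DESeq2 called 0. The test of parental against GRKO GC effects was passed in cultures by *Mt1*, *Mt2*, *Per1*, *Rgs2* and *Sgk1* beside *Tsc22d3*, where 0.295% of all genes passed. In tumors it was passed by *Mt1* of the 18, and by 0 to 6 of the 18 when 1 tumor was left out. Of all genes, 0.195% passed in tumors, with 0 to 1284 genes when 1 tumor was left out. The fit without the 6 tumors high in *Gm26924* has 1 GRKO control tumor, so no count is given for it. Leaving out 1 culture at a time, *Cebpd* passed the GC test in 0 of 5 fits, *Fkbp5* in 1 of 5 and *Klf9* in 4 of 5, and the number of GC-induced genes that passed was 5 without parental GC replicate 1.

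Lists of partners and pathways of the family were compared in the same way. Of the 11 genes for GILZ binding proteins, 0 passed in parental tumors, where 0.779% of all genes did, and 1 passed in GRKO tumors, where 6.42% of all genes did, a share that moved with the tumors left out as given above. That gene was *Rela*, the NF-κB subunit p65 (-1.28), and 0 of 11 passed in parental and in GRKO cultures. Among 9 inflammatory genes of NF-κB and AP-1 tested in tumors, *Il1b* (-2.99) and *Tnf* (-1.99) fell in parental tumors and *Tnf* (-2.98), *Il1b* (-2.29) and *Icam1* (-0.84) fell in GRKO tumors, with list medians of -1.39 and -0.65, and *Icam1* passed in 2 of the 10 fits that leave out 1 tumor. In cultures 4 of the 12 listed inflammatory genes were tested and 0 passed with GC. Without the 6 tumors high in *Gm26924*, *Il1b* (-2.94) and *Tnf* (-3.07) still passed in GRKO tumors, and no other gene of these lists or of the markers that had passed there did, in a fit with 1 GRKO control tumor. The log2 fold changes of *Icam1* (-1.33), *Myh4* (-1.77) and *Cd3d* (-1.42) were larger in size in that fit than with every tumor. Those of *Kdr* (-1.20), *Krt1* (1.36), *Col1a2* (1.24), *Rela* (-0.78), *Krt10* (0.76), *Tgfb3* (0.62), *Pdgfra* (0.60), *Sesn1* (0.59), *Col3a1* (0.59), *Col1a1* (0.34) and *Krt14* (-0.28) were smaller. Of the FOXO factors and targets, which GILZ is known to restrain, *Sesn1* (1.54) rose in GRKO tumors as 1 of 10, beside 6.42% of all genes, in 9 of 10 fits that leave out 1 tumor, and 0 of 10 passed in parental tumors or either culture. The WNK kinases and their partners, the setting of *Tsc22d2* and *Tsc22d4*, had 0 of 13 in either tumor comparison and 0 of 11 in either culture comparison past the GC test.

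For the TGF-β pathway, from which *Tsc22d1* takes its name, *Lrrc32* fell in parental tumors (-1.48), *Tgfb3* rose in GRKO tumors (1.18) and *Smad3* fell in parental cultures (-0.77), each as the 1 gene of 12, with 0 of 12 in GRKO cultures. Of all genes, 0.779%, 6.42% and 0.878% passed in the same 3 comparisons. *Tgfb3* passed in 6 of 10 fits that leave out 1 tumor and *Smad3* in 0 of 5 that leave out 1 culture. Of the genes for GC receptors and supply, *Fkbp5* was the 1 of 10 to rise in GRKO tumors and the 1 of 8 to rise in parental cultures, and 0 of 10 passed in parental tumors and 0 of 8 in GRKO cultures.

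Markers of cell types moved with GC in the same tumors in which *Tsc22d3* rose. Fewer cells of a type and less RNA per cell cannot be told apart in these samples. The 5 neutrophil markers summed to 22.3, 66.9, 237, 32.4 and 1234 CPM in parental control tumor replicates 1 to 5 and to 14.7, 9.02, 11.1, 22.0 and 38.6 CPM in parental GC tumors. In GRKO tumors they summed to 420, 767, 264, 187 and 1012 CPM with control treatment and 95.4, 48.1, 228, 194 and 129 CPM with GC. *S100a8* was the most abundant and *Ly6g* had no count. *S100a8* (-3.96) and *S100a9* (-5.03) fell in parental tumors, 2 of the 4 tested, and 0 of 4 passed in GRKO tumors. Of all genes, 0.779% passed in parental and 6.42% in GRKO tumors. With 1 tumor left out at a time, *S100a8* passed in 4 of 10 fits and *S100a9* in 9 of 10.

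The 5 fibroblast markers, led by *Col3a1* and *Col1a1*, summed to 6457, 7249, 6468, 7197 and 6557 CPM in parental control and 10629, 7870, 10465, 7409 and 10487 CPM in parental GC tumors, every GC tumor above every control, and 0 of 5 passed. In GRKO tumors they summed to 3393, 3699, 4269, 6626 and 4873 CPM with control treatment and 9585, 7807, 11033, 6974 and 10357 CPM with GC, again every GC tumor above every control. *Col1a1*, *Col1a2*, *Col3a1* and *Pdgfra* rose, 4 of 5, where 6.42% of all genes passed. Of these, *Col1a1* passed in 4 and *Pdgfra* in 3 of 10 fits that leave out 1 tumor. Without the 6 tumors high in *Gm26924* the log2 fold changes of all 4 were smaller, as given above. The line itself also had reads of fibroblast markers, with mean sums of 238 and 192 CPM in parental DMSO and GC cultures and 80.5 and 72.0 CPM in GRKO DMSO and GC cultures, most of it *Col3a1*, so these sums are not of host cells alone. The 4 endothelial markers, led by *Kdr*, summed to 62.9, 52.3, 40.6, 67.1 and 43.1 CPM in parental control and 33.9, 17.6, 23.3, 34.3 and 31.2 CPM in parental GC tumors, with 0 of 4 past the test. They summed to 85.4, 81.9, 97.2, 104 and 77.4 CPM in GRKO control and 45.3, 48.8, 43.1, 38.2 and 43.7 CPM in GRKO GC tumors, where *Kdr* fell (-1.32), 1 of 4 beside 6.42% of all genes.

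Of 5 keratinocyte markers *Lor* rose in parental tumors, and *Krt1* and *Krt10* rose and *Krt14* fell in GRKO tumors, and with 1 tumor left out at a time *Lor* passed in 8, *Krt10* in 9 and *Krt14* in 3 of 10 fits. *Cd3d* fell in GRKO tumors as 1 of 6 T cell markers, as did *Myh4* as 1 of 5 muscle markers, in 5 and 7 of 10 fits that leave out 1 tumor, and 0 of either list passed in parental tumors. Beside these counts, 6.42% of all genes passed in GRKO tumors, a share that moved with the tumors left out as given above, and 0.779% in parental tumors. No marker of macrophages (6 tested), adipocytes (4), B cells (1), leukocytes (1) or melanocytes (5) passed the GC test in tumors of either genotype. The part of these cell types in the rise of *Tsc22d3* in tumors was not tested, and in parental cultures, where *Ptprc* was at or near 0, the rise of *Tsc22d3* was 8.52-fold.

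Promoter windows from RefSeq (GRCm38.p6, the 250 bases before each annotated start) were found for 2 of the 4 members, with 5 windows for *Tsc22d1* and 3 for *Tsc22d3*. They were searched on both strands for the GR element (AGAACA, any 3 bases, TGTTCT), for a relaxed form (AGNACA, any 3 bases, TGTNCT), for the hexamer AGAACA that is also an arm of the GR element, and for the forkhead motif GTAAACA. The full and relaxed elements and the forkhead motif were in 0 of the 8 windows, and in 0.00913%, 0.0639% and 3.65% of all 32851 windows. The hexamer was in 1 window of each member and in 19.0% of all windows. Of 24 windows of GC-induced genes, 1 held the full element (*Sgk1*) and 3 the hexamer. The 2 member windows with the hexamer are shown, 5′ to 3′. They belong to *Tsc22d3*, which passed the GC test, and to *Tsc22d1*, which passed it in no setting. The shared letters stand in capitals (TGTTCT is AGAACA on the other strand).
*Tsc22d1* chr14:76503976-76504225, plus strand: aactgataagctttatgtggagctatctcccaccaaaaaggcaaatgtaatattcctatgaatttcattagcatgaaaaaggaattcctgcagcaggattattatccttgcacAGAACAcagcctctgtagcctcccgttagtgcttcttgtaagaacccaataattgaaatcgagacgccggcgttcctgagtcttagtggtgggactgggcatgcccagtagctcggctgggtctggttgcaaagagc
*Tsc22d3* chrX:140600523-140600772, minus strand: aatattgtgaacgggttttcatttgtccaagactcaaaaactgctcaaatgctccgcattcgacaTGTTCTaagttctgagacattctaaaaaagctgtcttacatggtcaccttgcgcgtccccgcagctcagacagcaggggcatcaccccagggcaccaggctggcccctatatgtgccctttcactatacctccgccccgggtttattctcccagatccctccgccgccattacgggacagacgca
The hexamer begins at -137 in the *Tsc22d1* window and at -185 in the *Tsc22d3* window, counted from the annotated start. A match is a description of these letters and not of binding.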

How the data were processed

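The libraries of 20 tumors and 11 cultures were made with the QuantSeq 3′ FWD kit. The authors trimmed reads with Trim Galore 0.6.5, aligned them with STAR 2.6.1d to GRCm38 and assigned them to genes with featureCounts. The deposited values are raw counts per gene, whole numbers that the authors did not normalize. Groups were taken from the labels. Gene positions and transcripts come from the GENCODE annotation of GRCm38 and promoter windows from RefSeq. The members and gene lists were chosen with earlier results of these data known.

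Genes that reached a CPM of 0.5 in 3 or more samples were tested with edgeR 4.0.16 (quasi-likelihood, TMM factors, R 4.3.3), for the 20 tumors, the 11 cultures, and all 31 libraries where tumors were set against cultures, which gave 14 comparisons. Benjamini-Hochberg adjustment ran over all genes of a comparison. Exact permutation tests were two-sided, on log2(CPM + 1) or on log2 ratios of counts with a pseudocount of 1. The planned test of the *Tsc22d3* share is not given, because it would be a p for a score over the members. Named genes were the 4 members, *Nr3c1*, up to 6 genes of each list that passed a GC test, by size, and the 5 genes nearest to each member by Pearson r.

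Alternatives were DESeq2 1.42.0, its size factors within edgeR, library totals, no filter, at least 10 counts in every sample, no fold minimum or a fold of 2, the compared groups alone, a joint fit, the replicate number as a block, other pseudocounts, the share without *Tsc22d1*, and leaving out each library. The fits without the 6 tumors high in *Gm26924* and with its share as a covariate were chosen after seeing the data. Over 50 pairs of replicates the lowest chi-square per gene was 8.60, so no pair is 1 library sequenced again. The pipeline was tested on simulated data. No protein table was at hand, so the planned comparison of the proteins was left out.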

Additional observations from a re-analysis of the deposited data

Results flagged for a closer look

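In 40 groups of 5 tumors, over the levels, ratios and library measures used above, 2 had a tumor farther from the rest than Dixon's 95% critical value allows, and chance gives about 1 in 20. *Gm26924* took 5.55% of the counts in parental control tumor replicate 1 and 1.76% in the next highest, a gap of 0.741 of the group's range. The log2 ratio of *Tsc22d3* to *Tsc22d2* was 3.74 in GRKO control tumor replicate 1 and 2.41 in the next highest, a gap of 0.810 of the range. This tumor had 61 reads of *Tsc22d2* and 11.6% of its counts on *Gm26924*.

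The GC effect differed between parental and GRKO cultures by an edgeR test of the difference for *Tsc22d3* (3.14, SE 0.27, adjusted p = 0.000332) and 5 GC-induced genes. These were *Mt2* (3.70, adjusted p = 3.48e-05), *Rgs2* (3.64, adjusted p = 0.000332), *Per1* (3.00, adjusted p = 0.00415), *Mt1* (1.99, adjusted p = 0.00585) and *Sgk1* (1.30, adjusted p = 0.00927). Without parental GC culture replicate 2, *Mt1* had 1.86 (adjusted p = 0.0599) and *Sgk1* 1.28 (adjusted p = 0.0871), and *Sgk1* also did not pass without parental GC culture replicate 1 (1.32, adjusted p = 0.0688) or parental DMSO culture replicate 1 (1.26, adjusted p = 0.0529).

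In tumors the difference between genotypes passed for *Mt1* (1.90, adjusted p = 0.0223). It did not pass without GRKO control replicate 2 (1.78, adjusted p = 0.0564), GRKO GC replicate 5 (1.82, adjusted p = 0.0685), parental control replicate 3 (1.86, adjusted p = 0.0746) or parental GC replicate 4 (1.78, adjusted p = 0.0522). The GC effect on *Mt2* was lower in parental tumors than in parental cultures by a log2 difference of -2.04 (adjusted p = 7.77e-05).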

How the results depend on the processing

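In parental tumors, parental cultures and the difference between parental and GRKO cultures, *Tsc22d3* kept its direction and passed under every alternative tried, with log2 fold changes of 2.20 to 2.51, 2.94 to 3.20 and 3.01 to 3.28. In GRKO tumors it passed in 21 of 22 alternatives. *Tsc22d2* passed under none. Exact tests of members gave the same outcome with a pseudocount of 0.1. Where an outcome changed, the cause was not tested. Fits that leave libraries out also have fewer of them.

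Without the 6 tumors high in *Gm26924*, replicate 4 is the only GRKO control tumor, so values for GRKO control tumors below rest on it alone. The GC effect in GRKO tumors was then 1.41 for *Tsc22d3* and -0.10 for *Tsc22d2*. The difference of GC effects between parental and GRKO tumors was -0.23 for *Tsc22d1* (0.21 with every tumor). GRKO against parental control tumors gave 0.011 for *Tsc22d2*, 0.41 for *Tsc22d3* and 0.20 for *Tsc22d4* (-0.54, -0.12 and -0.60 with every tumor), and GRKO control tumors against DMSO cultures gave 0.28 for *Tsc22d2*. GC effects in GRKO tumors minus GRKO cultures were -0.11 for both *Tsc22d2* and *Tsc22d4* (0.40 and 0.41 with every tumor). The GC differences in log2 ratio to *Tsc22d1* were 1.94 in parental and 0.74 in GRKO tumors, and 2.93 to *Tsc22d2* in parental tumors. The share of *Tsc22d3* gained 15.8 points with GC in GRKO tumors. It was 12.8 points higher in GRKO control replicate 4 than in the mean of the parental control tumors kept.

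With library totals, which moved the median of all genes by more than 0.1 in 6 comparisons (to 0.31 for GC in GRKO tumors and -0.30 for GRKO against parental control tumors, for example), the difference of GC effects between parental and GRKO tumors was -0.12 for *Tsc22d1* and -0.15 for *Tsc22d4*, and the GC effect in GRKO cultures was -0.0058 for *Tsc22d1* and -0.030 for *Tsc22d2*. That effect for *Tsc22d2* was -0.0061 with no filter, -0.0075 with 10 counts in every sample, -0.0052 with the compared groups alone and -0.012 in the joint fit. For GRKO against parental GC cultures, *Tsc22d4* had -0.019 with library totals, -0.017 in the joint fit and -0.0036 with 10 counts in every sample. For DMSO cultures, 0 members passed with library totals, the joint fit or a fold of 2. For GC effects in GRKO tumors minus GRKO cultures, 1 member passed with DESeq2 or no filter. The ratio of *Tsc22d3* to *Tsc22d2* in GRKO tumors passed with a pseudocount of 10 (1.27). Without *Tsc22d1* in the sum, the share of *Tsc22d3* gained 13.2 points in GRKO tumors and 48.4 in parental cultures, and was 7.09 higher in GRKO than in parental DMSO cultures.

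The labels do not say that equal replicate numbers share a source, and the libraries were treated as unpaired. Deviations from the group mean had a mean correlation of 0.0583 over 30 pairs of tumors (-0.543 to 0.415, with 16 over 0.1) and 0.0198 over 15 pairs of cultures (-0.552 to 0.620, with 7 over 0.1). Some pairs were alike, such as all 6 of tumor replicate 2 (0.121 to 0.383), GRKO against parental GC tumors (0.0998 to 0.389) and parental DMSO against GC cultures (0.249 and 0.404). With the replicate number as a block, the GC effect in parental cultures was -0.035 for *Tsc22d2* and 0.012 for *Tsc22d4*, that in GRKO cultures -0.023 for *Tsc22d2*, and their difference -0.012 for *Tsc22d2*. The block also gave -0.12 for *Tsc22d4* in GRKO against parental GC cultures, and 1 member, *Tsc22d3*, passed for GRKO tumors minus GRKO cultures (1.88).

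Leaving out 1 library at a time changed the sign of small differences. In parental cultures the GC effect was -0.15 to 0.34 for *Tsc22d2* and -0.27 to 0.073 for *Tsc22d4*. In GRKO cultures it was -0.088 to 0.19 for *Tsc22d1*, -0.24 to 0.22 for *Tsc22d2*, -0.19 to 0.070 for *Tsc22d3* and -0.027 to 0.49 for *Tsc22d4*. The difference of GC effects was -0.12 to 0.35 for *Tsc22d4* between tumors and -0.16 to 0.36 for *Tsc22d2* between cultures, and GRKO against parental GC cultures gave -0.13 to 0.39 for *Tsc22d2* and -0.26 to 0.24 for *Tsc22d4*. The ratio differences of *Tsc22d3* were 1.53 to 2.03 against *Tsc22d1* in parental tumors, 1.33 to 1.67 against *Tsc22d1* and 1.13 to 1.54 against *Tsc22d2* in GRKO tumors, and -0.38 to 0.028 and -0.29 to 0.19 against them in GRKO cultures. Between 0 and 1 members passed for DMSO cultures and for GRKO tumors minus GRKO cultures, and 2 to 3 for parental control tumors against DMSO cultures. Over all genes, the number called with GC was 60 to 178 in parental tumors (124 with every library), 303 to 2411 in GRKO tumors (1022, and 29 without the 6 tumors) and 31 to 78 in parental cultures (110). For the difference of GC effects between tumors it was 0 to 1284 (31), for GRKO against parental control tumors 61 to 1762 (358), and for GRKO tumors minus GRKO cultures 0 to 216 (8). *Tsc22d2* had 61 to 582 reads in each library and *Tsc22d4* had 71 to 1049.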
